A study of Mus musculus with 12 samples.

Results

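The genes described here are 10 core members of the transforming growth factor beta (TGF-beta) pathway among the 16670 genes of a deposited expression table: the ligands Tgfb1 and Tgfb2, the receptors Tgfbr1 and Tgfbr2, the signal carriers Smad2, Smad3 and Smad4, the inhibitory Smad7, and the nuclear repressors Ski and Skil. They were taken by their symbols, and all 10 were listed. The set was chosen by measured values, namely the lower Skil level in mature adipocytes labelled Kdm5c+/–, so differences between the genotype labels in mature adipocytes are given for these genes as a description, with no test. The RNA came from female C57BL/6 mice and from their inguinal white fat, which lies beneath the skin of the groin. Tissue was digested with collagenase and spun, which parted the floating mature adipocytes from a pellet of stromal vascular cells (progenitors, vessel cells and immune cells). There were 4 groups of 3 libraries: mature adipocytes labelled Kdm5c+/–, mature adipocytes labelled Kdm5c+/+ (wild type), and stromal vascular cells with each of these labels. All groups share the strain and the sex, each library holds RNA of a pool of 2 mice, and the labels give neither the age nor which stretch of Kdm5c the changed allele lacks. The p-values below measure the spread between such pools.

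TGF-beta ligands are secreted in a latent form, released in the matrix, and bind a pair of membrane kinases. The type II receptor phosphorylates the type I receptor, which phosphorylates Smad2 and Smad3. These join Smad4, enter the nucleus and switch target genes. Smad7 blocks the type I receptor, and Ski and Skil (also called SnoN) sit on Smad complexes and recruit corepressors. In fat, TGF-beta signalling is known for holding back the differentiation of progenitors into adipocytes and for driving matrix production.

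Depth ran from 21836878 to 29434125 reads per library. CPM values sum to 1000000 in each library, and a count of 3 reads equals 0.102 to 0.137 CPM, a floor that covers counting error only. Kdm5c itself was at 169 ± 18.4 CPM (mean ± SD, n = 3) in mature adipocytes labelled Kdm5c+/– and at 177.7 ± 2.99 in wild type, and at 186.5 ± 9.89 and 184.6 ± 4.09 in the stromal vascular fraction, so its total level does not separate the genotype labels. The fraction labels were borne out by marker genes: the 8 adipocyte markers summed to 26093 to 36850 CPM in mature adipocytes and to 509 to 1592 CPM in the stromal vascular libraries. In mature adipocytes the median marker stood at 1.25% of its stromal vascular level for progenitors, 3.02% for endothelium, 2.77% for pericytes and smooth muscle and 1.82% for macrophages. Of the pericyte markers, Cspg4 alone was as high in mature adipocytes (111%).

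The fractions were compared first, over all 12 libraries, with the fractions of a pool not paired in the fit. In CPM, 9 of 10 core TGF-beta genes were lower in mature adipocytes than in stromal vascular cells. The 9, and the median of the members below, include Tgfb2. It passed the level filter through its stromal vascular libraries alone, so its call is no separate support. Tgfb2 and Tgfbr2 were furthest apart. Under 5 other scalings or count models Skil was not called, and Smad2 was called higher in 4 of 5. Of all 14193 genes tested in CPM, 87.8% passed in either direction and 59.1% were lower in mature adipocytes, so a lower level is the common case. With TMM scaling 43.4% of all genes were called lower and 42.9% higher. The median member was at -0.91 on the log2(CPM + 1) scale, mature adipocytes minus stromal vascular, beside -0.45 for all genes. All tests used limma on that scale, two-sided, with Benjamini-Hochberg adjustment over all genes tested and a threshold of 0.05. In tissue fractions, fewer cells of a type and less RNA per cell cannot be told apart.

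Tgfb1 encodes the main immune and stromal ligand (chr7:25687002-25705077, plus strand, GRCm38). In mature adipocytes Tgfb1 was at 21.8, 13.7 and 31.7 CPM in the 3 Kdm5c+/– libraries and at 21.9, 30.4 and 25.4 CPM in the wild-type libraries. Stromal vascular Tgfb1 was at 136, 103.6 and 133 CPM in Kdm5c+/– and at 174, 165 and 135 CPM in wild type. Every stromal vascular library lay above every mature adipocyte library, 5.85-fold on the means (141 ± 25.1 against 24.1 ± 6.59, n = 6 each). Tgfb1 was lower in mature adipocytes by a log2 difference of -2.53 ± 0.17 (SE, adjusted p = 4.9e-08 by limma).

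Tgfb2 encodes a second ligand of the same receptors (chr1:186622792-186705989, minus strand). Mature adipocyte Tgfb2 rested on 5, 8 and 15 reads in the Kdm5c+/– libraries (0.183, 0.320 and 0.588 CPM) and on 20, 25 and 19 reads in wild type (0.827, 0.849 and 0.734 CPM). Stromal vascular Tgfb2 was at 21.6, 21.8 and 22.0 CPM in Kdm5c+/– and at 32.1, 19.9 and 31.4 CPM in wild type. The mature adipocyte level was 2.35% of the stromal vascular one, beside list medians of 0.789% (mammary epithelium) to 3.02% (endothelium) for 6 lists of other cells' markers and 12.8% for Schwann cells. The log2 difference was -4.02 ± 0.12 (adjusted p = 2.97e-11 by limma). No mature adipocyte library reached 1 CPM. Tgfb2 thus entered the test through its stromal vascular libraries alone, and the p-value is no separate support for its low level. An antisense gene, Gm29491, and a small nucleolar RNA overlap Tgfb2, and no source used here says whether the counting used strand. As Tgfb2 showed the widest gap between the fractions, the 250 bases before its start are shown, from RefSeq (GRCm38.p6, chr1:186705990-186706239, minus strand, 5′ to 3′), with the core letters of a Smad binding element (CAGAC, either strand) and a TATA box (TATAAA, either strand) in capitals.
Tgfb2: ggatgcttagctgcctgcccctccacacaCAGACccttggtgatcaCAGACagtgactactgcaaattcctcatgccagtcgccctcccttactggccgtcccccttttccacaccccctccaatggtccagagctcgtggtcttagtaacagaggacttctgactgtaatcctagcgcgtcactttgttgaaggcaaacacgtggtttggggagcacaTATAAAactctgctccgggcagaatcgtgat
The window holds CAGAC 2 times and TATAAA 1 time. Of 32851 RefSeq windows of the same length, 42.2% hold CAGAC and 12.4% hold TATAAA, and a match of letters is no measured site.

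Tgfbr2 encodes the type II receptor, which binds ligand first (chr9:116084293-116175360, minus strand). Mature adipocyte Tgfbr2 was at 65.5, 54.1 and 58.1 CPM in Kdm5c+/– and at 66.5, 58.5 and 67.9 CPM in wild type. Stromal vascular Tgfbr2 was at 677, 818 and 636 CPM in Kdm5c+/– and at 715, 567 and 782 CPM in wild type. The 6 stromal vascular libraries stood 11.3-fold above the mature adipocyte libraries on the means, with no overlap. The log2 difference was -3.47 ± 0.09 (adjusted p = 1.41e-11 by limma). Its promoter window is shown for comparison with that of Tgfb2 (RefSeq, GRCm38.p6, chr9:116175364-116175613, minus strand, 5′ to 3′), with CAGAC in capitals.
Tgfbr2: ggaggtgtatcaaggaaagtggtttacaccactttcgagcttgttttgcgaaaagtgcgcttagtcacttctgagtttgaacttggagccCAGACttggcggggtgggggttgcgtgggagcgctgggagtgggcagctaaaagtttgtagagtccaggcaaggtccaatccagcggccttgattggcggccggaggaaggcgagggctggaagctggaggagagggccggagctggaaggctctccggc
It holds CAGAC 1 time and no TATAAA, which says only that these letters are not in this window.

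Tgfbr1 encodes the type I receptor, the kinase that acts on the Smads (chr4:47353222-47414931, plus strand). Mature adipocyte Tgfbr1 was at 29.9, 31.5 and 30.8 CPM in Kdm5c+/– and at 42.0, 33.3 and 36.2 CPM in wild type. Stromal vascular Tgfbr1 was at 54.3, 54.0 and 59.6 CPM in Kdm5c+/– and at 65.5, 66.8 and 64.0 CPM in wild type. Mature adipocytes held 55.9% of the stromal vascular level in CPM, a log2 difference of -0.82 ± 0.06 (adjusted p = 5.86e-08 by limma). The receptor chains stood in different proportion in the fractions. Per kb of exon sequence, the ratio of Tgfbr2 to Tgfbr1 was 1.26 to 1.75 in the 6 mature adipocyte libraries and 6.77 to 12.1 in the 6 stromal vascular libraries.

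**Figure D1:**
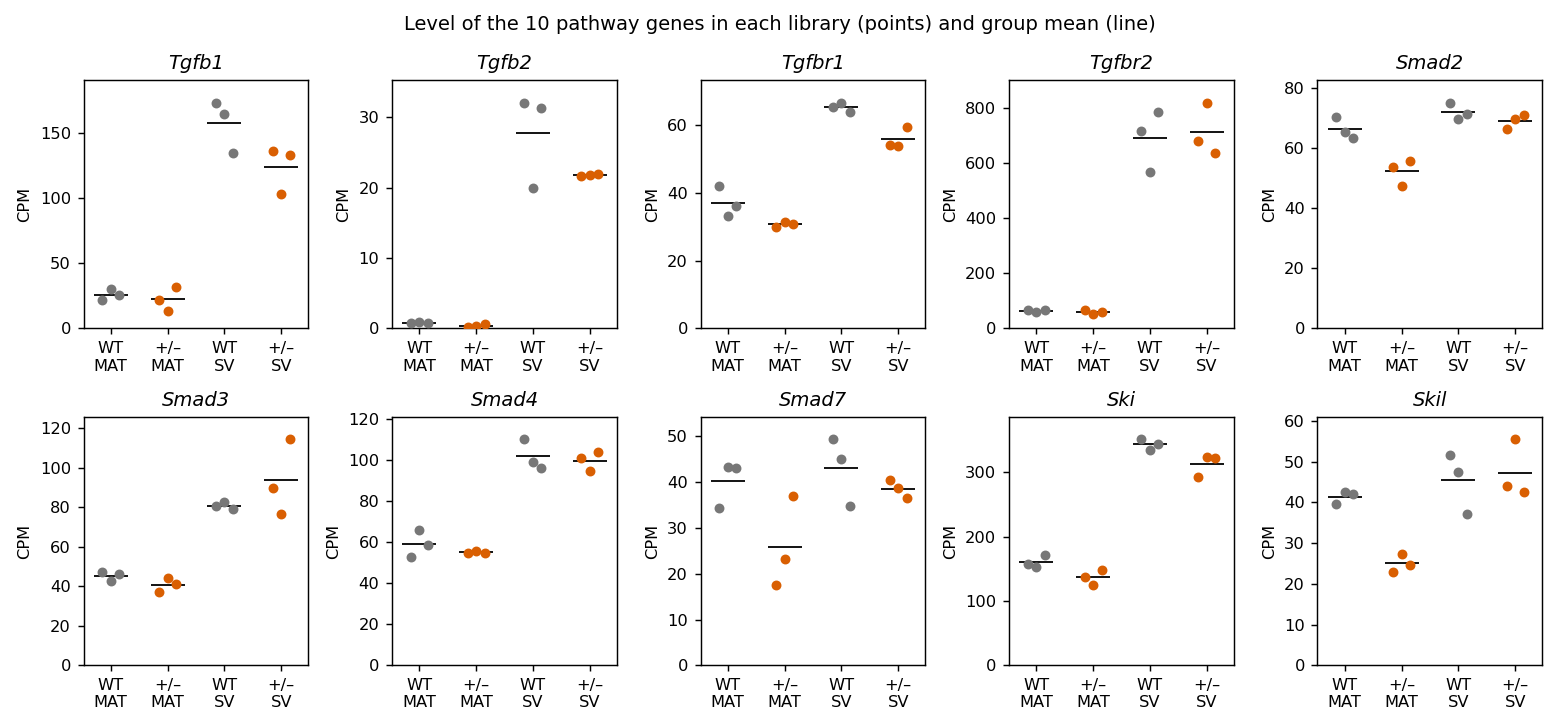
CPM (vertical axis, from 0) of each of the 10 pathway genes in its own panel, with 1 point per library and a line at the group mean, for wild type (WT) and Kdm5c+/– (+/–) in mature adipocytes (MAT) and stromal vascular cells (SV). Tgfb2, Tgfb1 and Tgfbr2 are furthest below their stromal vascular levels in mature adipocytes, and the 3 Kdm5c+/– points of Skil (23.0 to 27.5 CPM) lie below the 3 wild-type points (39.6 to 42.6 CPM) in that fraction.

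Smad3, a receptor-activated Smad that binds DNA (chr9:63646767-63757994, minus strand), was at 37.1, 44.2 and 41.0 CPM in Kdm5c+/– mature adipocytes and at 47.1, 42.5 and 46.0 CPM in wild type. Stromal vascular Smad3 was at 89.8, 76.8 and 114 CPM in Kdm5c+/– and at 80.4, 82.7 and 79.0 CPM in wild type. The fractions did not overlap, and Smad3 was lower in mature adipocytes by -0.99 ± 0.09 on the log2 scale (adjusted p = 3.38e-07 by limma). Smad4, the partner shared by all receptor-activated Smads, was at 54.7, 55.4 and 54.6 CPM in Kdm5c+/– mature adipocytes and at 52.9, 65.6 and 58.5 CPM in wild type. Its stromal vascular levels were 100.6, 94.4 and 103.7 CPM in Kdm5c+/– and 109.8, 99.0 and 96.0 CPM in wild type. Smad4 had a log2 difference of -0.81 ± 0.06 (adjusted p = 7.4e-08 by limma), again with no overlap. A processed pseudogene lies within Smad4 on the other strand.

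Smad2, the other receptor-activated Smad of this pathway, differed least of the members that passed; it lies on chromosome 18, as do Smad4 and Smad7. Mature adipocyte Smad2 was at 53.8, 47.5 and 55.6 CPM in Kdm5c+/– and at 70.4, 65.4 and 63.3 CPM in wild type. Stromal vascular Smad2 was at 66.5, 69.7 and 71.0 CPM in Kdm5c+/– and at 75.2, 69.7 and 71.4 CPM in wild type. The fractions overlapped through the wild-type mature adipocyte libraries. In CPM the log2 difference of Smad2 was -0.26 ± 0.05 (adjusted p = 0.000661 by limma), but its direction turned, to between 0.11 and 0.22, under each of 5 other scalings or count models, and it was then called higher in mature adipocytes in 4 of 5. Per kb the ratio of Smad2 to Smad3, which a scale factor per library cannot move, was 0.679 to 0.971 in mature adipocytes and 0.392 to 0.591 in stromal vascular libraries.

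Smad7, the inhibitory Smad that the pathway itself induces, did not pass the test between fractions. Mature adipocyte Smad7 was at 17.6, 23.2 and 36.9 CPM in Kdm5c+/– and at 34.4, 43.4 and 43.1 CPM in wild type. Stromal vascular Smad7 was at 40.4, 38.8 and 36.6 CPM in Kdm5c+/– and at 49.3, 45.1 and 34.7 CPM in wild type. The groups overlapped, and the log2 difference was -0.35 ± 0.16 (adjusted p = 0.0507 by limma). It passed when the third Kdm5c+/– mature adipocyte library was left out (-0.49, adjusted p = 0.00134 by limma) or the third wild-type stromal vascular library (-0.42, adjusted p = 0.0281 by limma), and it turned to between 0.03 and 0.14 without being called under the 5 other scalings.

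Ski, the founding member of the repressor family (chr4:155154075-155222592, minus strand), was at 138, 125 and 149 CPM in Kdm5c+/– mature adipocytes and at 157, 154 and 172 CPM in wild type. Stromal vascular Ski was at 293, 324 and 323 CPM in Kdm5c+/– and at 351, 335 and 344 CPM in wild type. Mature adipocytes held 45.4% of the stromal vascular level with no overlap, a log2 difference of -1.14 ± 0.06 (adjusted p = 2.43e-09 by limma). Of the 6 members with a window in the table (Smad2, Smad4, Smad7 and Skil had none), Ski had the one richest in CG, so it is shown (RefSeq, GRCm38.p6, chr4:155222536-155222785, minus strand, 5′ to 3′), with GGCGC, the core letters of a GC-rich Smad element, on either strand in capitals.
Ski: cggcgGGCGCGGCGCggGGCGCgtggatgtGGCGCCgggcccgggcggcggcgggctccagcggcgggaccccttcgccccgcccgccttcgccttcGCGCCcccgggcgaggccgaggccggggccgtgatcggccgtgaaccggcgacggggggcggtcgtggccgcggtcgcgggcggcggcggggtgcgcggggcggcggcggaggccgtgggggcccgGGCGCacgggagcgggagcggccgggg
It holds 53 CG pairs, more than 99.96% of all windows, and 7 overlapping or separate matches to GGCGC, which 32.0% of windows hold. The GENCODE gene span given above reaches into the end of this window, so the last match lies within the annotated gene. The windows of Tgfb1, Tgfb2, Tgfbr2 and Smad3 hold 21, 8, 12 and 22 CG pairs, and the pair of Tgfbr1 windows 29 and 3.

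Skil, the gene of the second repressor, SnoN (chr3:31095058-31122577, plus strand), was at 23.0, 27.5 and 24.7 CPM in Kdm5c+/– mature adipocytes and at 39.6, 42.6 and 42.1 CPM in wild type. Stromal vascular Skil was at 44.0, 55.5 and 42.6 CPM in Kdm5c+/– and at 51.8, 47.5 and 37.1 CPM in wild type. The wild-type mature adipocyte libraries lay within the stromal vascular range, and the Kdm5c+/– ones lay below all of them. Over all libraries Skil was lower in mature adipocytes by -0.50 ± 0.09 in CPM (adjusted p = 0.000262 by limma), but with the 5 other scalings it lay between -0.13 and -0.03 and was not called.

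**Figure D2:**
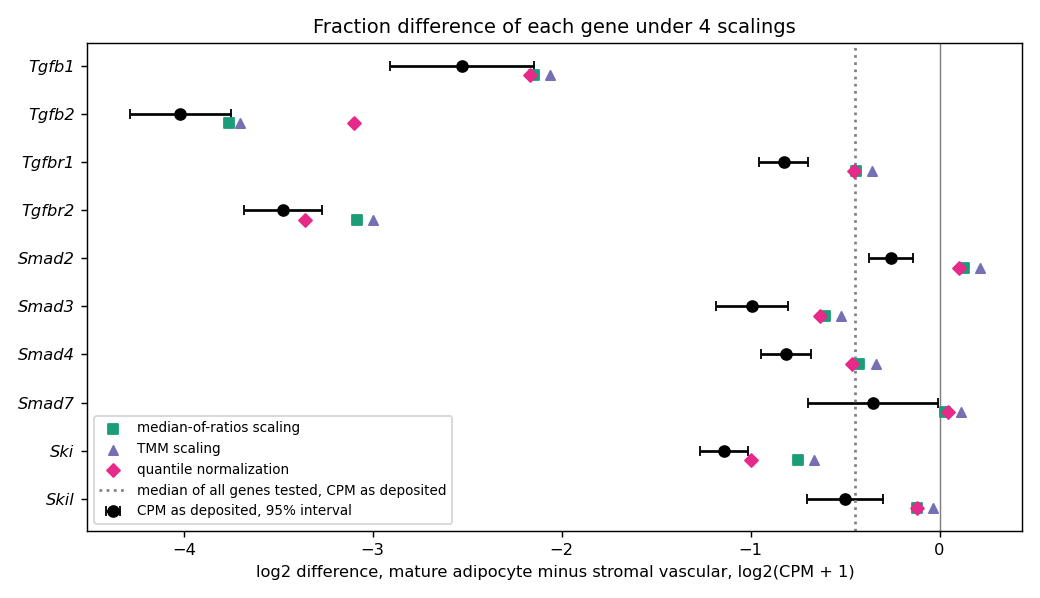
Log2 difference between mature adipocytes and stromal vascular cells (horizontal axis) for each pathway gene in CPM as deposited, and after median-of-ratios, TMM and quantile scaling; the dotted line is the median of all genes in CPM (-0.45). Tgfb1, Tgfb2, Tgfbr1, Tgfbr2, Smad3, Smad4 and Ski stay below 0 under all 4, while Smad2 and Smad7 change sign and Skil moves towards 0.

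The genes Tgfb1, Tgfb2, Tgfbr1, Tgfbr2, Smad3, Smad4 and Ski, were thus lower in mature adipocytes under every scaling tried. The size of the smaller differences depended on it: under the 5 other scalings and count models Tgfbr1 lay between -0.45 and -0.36, Smad4 between -0.46 and -0.34, Smad3 between -0.63 and -0.52, and Ski between -0.995 and -0.662. Tgfb2 lay between -5.12 and -3.10, Tgfbr2 between -3.358 and -2.999, and Tgfb1 between -2.17 and -2.06. As Tgfb2 passed the level filter through its stromal vascular libraries alone, its place among these genes is no separate support. The scalings moved the median of all genes from -0.45 in CPM to between -0.09 and 0.11, and the 10 most abundant genes took 15.7 to 19.3% of CPM in mature adipocytes and 5.77 to 8.41% in stromal vascular libraries. Pool by pool and in CPM, the mature adipocyte library was set against the stromal vascular library of the same genotype and number. It was lower in 6 of 6 pools for 8 members, in 5 of 6 for Skil and in 4 of 6 for Smad7. The 8 include Smad2, which turned to between 0.11 and 0.22 under the 5 other scalings and count models. No share of all genes was computed for this count, and the median of all genes was itself at -0.45 in CPM.

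**Figure D3:**
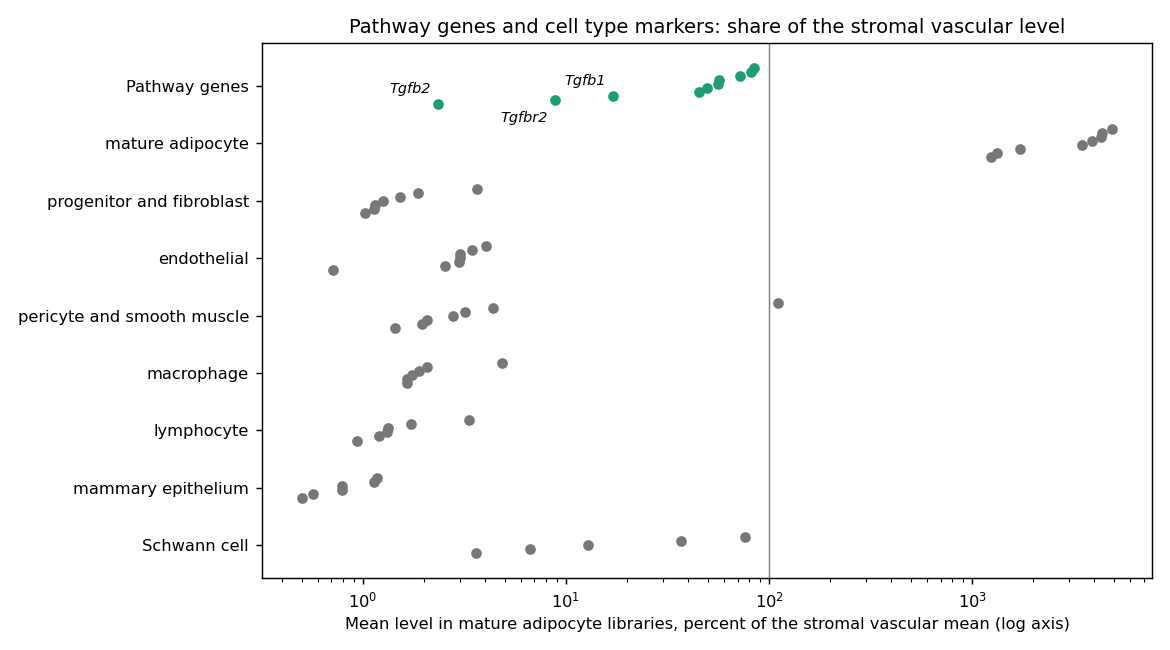
Mean level over the 6 mature adipocyte libraries as a percent of the mean over the 6 stromal vascular libraries, on a log axis, with 1 point per gene for the 10 pathway genes and for 8 lists of cell type markers. Tgfb2 (2.35%) lies among the markers of other cells, Tgfbr2 (8.83%) and Tgfb1 (17.1%) come next, and the other pathway genes lie between 45.4% and 84.0%.

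Levels of different genes can be set side by side only per length, here CPM per kb of annotated exon sequence. In mature adipocytes Ski came first at 26.8 CPM per kb, followed by Smad4 at 15.3, and neither overlapped its neighbour in the order over the 6 libraries. Smad3 (7.76), Tgfbr2 (7.54), Smad7 (7.32), Smad2 (6.76), Tgfbr1 (5.19), Tgfb1 (4.79) and Skil (3.43) followed as a run in which every neighbouring pair overlapped, and Tgfb2 came last at 0.10. Stromal vascular cells were led by Tgfbr2 at 85.4 CPM per kb, then Ski at 59.1, with no overlap. Tgfb1 (28.0) and Smad4 (27.1) overlapped, Smad3 stood apart at 15.7, Tgfbr1 (9.29), Smad7 (9.03) and Smad2 (8.04) overlapped, and Skil (4.79) and Tgfb2 (4.28) came last and overlapped. The type II receptor was thus first in stromal vascular cells and within the overlapping run in mature adipocytes, while Ski was first or next to first in both. The ratio of Tgfb1 to Tgfb2 per kb was 30.4 to 136 in mature adipocytes, where Tgfb2 rests on few reads, and 4.95 to 9.49 in stromal vascular libraries.

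The genotype labels were compared next within mature adipocytes. Of the 9 members that passed the level filter, which left out Tgfb2, Skil was furthest apart: its mean was 25.1 ± 2.25 CPM (SD, n = 3) in Kdm5c+/– and 41.4 ± 1.65 CPM in wild type, a log2 difference of -0.71 ± 0.09 (SE, 95% interval -0.92 to -0.50). These 9 members all had lower means in Kdm5c+/–, and 4 of 9 did so with no overlap between the groups. Of all 11913 genes, 56.9% had a lower estimate and 12.6% were lower with no overlap (22.0% in either direction), and the median gene was at -0.03. Since Skil's difference led to the choice of these genes, nothing is read from these counts or from the members' intervals, which only describe. By limma 0 of 11913 genes (0%) passed the threshold over the whole table, 1737 had an unadjusted p under 0.05, edgeR called 0 and DESeq2 called 250. An estimate at or below Skil's was found in 2.50% of genes, a rank that is likewise a description.

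Among the upstream members, Tgfbr1 lay at -0.26 ± 0.10 (95% interval -0.49 to -0.03), all 3 Kdm5c+/– libraries being under the lowest wild-type one. Tgfbr2 lay at -0.12 ± 0.10 (95% interval -0.35 to 0.12), with overlap. Tgfb1 lay at -0.26 ± 0.28 (95% interval -0.94 to 0.41), and its value turned to 0.03 without the second Kdm5c+/– library, the lowest of the 6. Tgfb2 was under the filter of 1 CPM in every mature adipocyte library and has no estimate, although its 3 Kdm5c+/– values (0.183 to 0.588 CPM) lie under the wild-type ones (0.734 to 0.849 CPM).

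Of the Smads, Smad2 lay at -0.34 ± 0.09 (95% interval -0.55 to -0.13), and its groups did not overlap. Smad3 lay at -0.15 ± 0.09 (95% interval -0.36 to 0.06) and Smad4 at -0.10 ± 0.09 (95% interval -0.31 to 0.12), both with overlap. Smad7 lay at -0.67 ± 0.25 (95% interval -1.28 to -0.07), and its groups overlapped because the third Kdm5c+/– library, at 36.9 CPM, exceeded the lowest wild-type library at 34.4 CPM. Without that library the Smad7 estimate was -0.95, and without the first Kdm5c+/– library it was -0.44. Of the repressors, Ski lay at -0.23 ± 0.09 (95% interval -0.45 to -0.01), with no overlap between the groups. Skil ranged from -0.77 to -0.65 as each library was left out in turn. The ratio of Ski to Skil per kb was 7.96 to 10.5 in the Kdm5c+/– libraries and 6.28 to 7.12 in wild type.

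**Figure D4:**
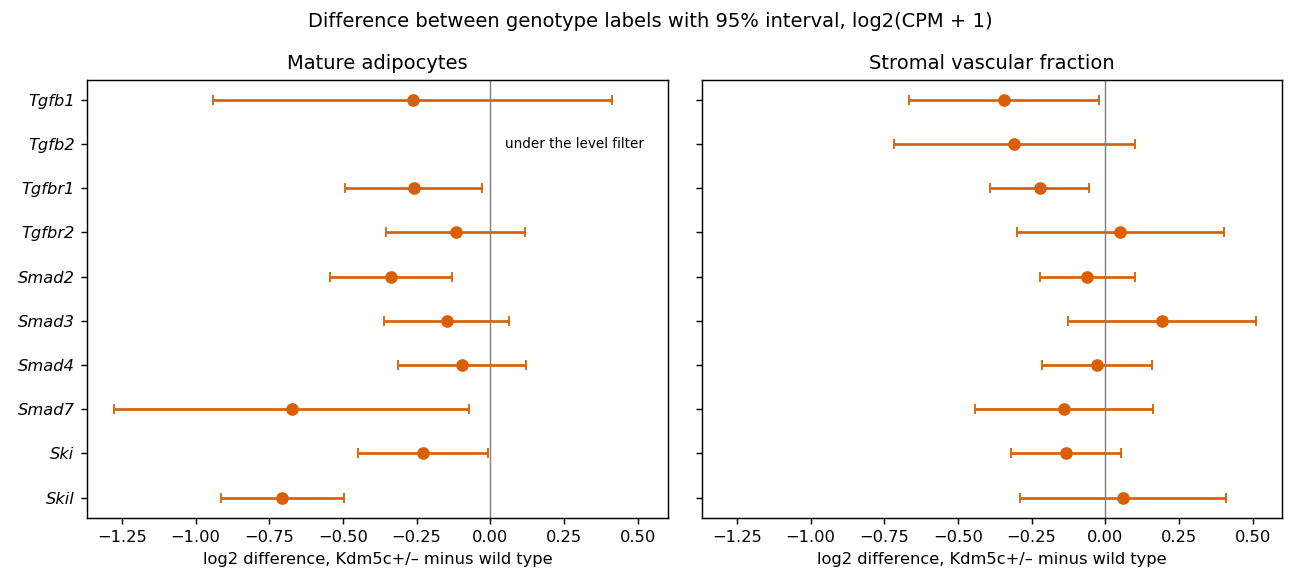
Log2 difference between Kdm5c+/– and wild type with its 95% interval for each pathway gene, with mature adipocytes on the left and the stromal vascular fraction on the right. Skil is at -0.71 on the left and 0.06 on the right, and Tgfb2 has no mature adipocyte estimate.

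Markers of other cells mostly had lower estimates in Kdm5c+/– in these libraries too, where 56.9% of all genes did. None of them was called by limma. In Kdm5c+/– mature adipocytes 7 of 7 endothelial markers were lower (sum 98.1 to 178 CPM against 225 to 283 in wild type), as were 7 of 7 progenitor markers (71.2 to 73.6 against 83.8 to 153) and 6 of 6 macrophage markers (24.8 to 28.5 against 25.8 to 75.2). Of the pericyte and smooth muscle markers 6 of 7 were lower, and Schwann cell markers were lower in 4 of 4. The pericyte and smooth muscle sum overlapped (183 to 285 against 213 to 238). That sum includes Cspg4, the marker that was higher in Kdm5c+/– (132 to 224 CPM against 67.9 to 138 CPM in wild type). Adipocyte markers summed to 28462 to 36850 CPM in Kdm5c+/– and to 26093 to 26809 CPM in wild type, with 5 of 8 higher. Lymphocyte and mammary markers were all under 1 CPM, and Ms4a1, Cd8a, Krt5 and Krt14 were at 0 in at least 1 mature adipocyte library. The part of these cells in the members' differences was not tested.

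In the stromal vascular fraction no member passed the test between the genotype labels. By limma 0 of 10 members were called, beside 1 of 13792 genes (0.00725%), Rps4l, which no longer passed when any 1 of the 6 libraries was left out. Tgfbr1 and Tgfb1, both with lower estimates, were the members with an unadjusted p under 0.05 by limma. Of all 13792 genes, 1043 had such a p, 758 of them with lower estimates. By edgeR and DESeq2 no member was called. The estimates were negative for 7 and positive for 3 of the 10 members, with a median of -0.10 beside -0.03 for all genes. Groups did not overlap, with Kdm5c+/– lower, for 2 of 10 members, Tgfbr1 and Ski, beside 9.74% of all genes (13.5% in either direction).

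Tgfbr1 was at 56.0 ± 3.15 CPM (SD, n = 3) in Kdm5c+/– and at 65.4 ± 1.40 CPM in wild type, a log2 difference of -0.22 ± 0.07 (95% interval -0.39 to -0.06, adjusted p = 0.617 by limma). Tgfb1 was at 124 ± 18.1 and 158 ± 20.2 CPM, with overlap, a difference of -0.34 ± 0.14 (95% interval -0.66 to -0.02, adjusted p = 0.644 by limma). Ski lay at -0.13 ± 0.08 (adjusted p = 0.697 by limma), all 3 Kdm5c+/– libraries being under the lowest wild-type one. Tgfb2 lay at -0.31 ± 0.17 (adjusted p = 0.682 by limma), and its wild-type libraries spread more widely (19.9 to 32.1 CPM) than the Kdm5c+/– ones (21.6 to 22.0 CPM).

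The remaining stromal vascular estimates were closer to 0 or less certain. Skil lay at 0.06 ± 0.15 (95% interval -0.29 to 0.41, adjusted p = 0.94 by limma). Smad3 lay at 0.19 ± 0.14, Smad7 at -0.14 ± 0.13, Smad2 at -0.06 ± 0.07, Tgfbr2 at 0.05 ± 0.15 and Smad4 at -0.03 ± 0.08, with adjusted p from 0.738 to 0.952 by limma. No marker was called here, and 59.4% of all genes had negative estimates. Estimates were lower in Kdm5c+/– for 7 of 7 pericyte and smooth muscle markers (sum 2882 to 3678 CPM against 3644 to 4485). They were lower for 7 of 7 endothelial markers (5168 to 6729 against 6609 to 7208). They were higher for 6 of 6 macrophage markers (1512 to 2290 against 1519 to 1597), with Cd68 at 0.005. These sums overlapped. Adipocyte markers had higher estimates for 6 of 8, with a median of 0.55 and overlapping sums (589 to 1592 against 509 to 993), as did 5 of 5 Schwann cell markers (192 to 489 against 194 to 279). Progenitor and fibroblast markers had higher estimates for 5 of 7, with a median of 0.02 and overlapping sums (5735 to 7408 against 6781 to 8430). Mammary markers had higher estimates for 4 of 6, and lymphocyte markers lower ones for 4 of 6. The part of all these cells in the members' estimates was not tested.

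The difference between the 2 genotype differences, mature adipocytes minus stromal vascular, uses the mature adipocyte values that chose the genes and is again a description. Skil lay at -0.77 ± 0.18 (95% interval -1.17 to -0.36), and it ranged from -0.87 to -0.63 as each of the 12 libraries was left out. Smad7 lay at -0.53 ± 0.31 (95% interval -1.22 to 0.15) and Smad3 at -0.34 ± 0.17 (95% interval -0.72 to 0.04). Smad2 lay at -0.28 ± 0.11 (95% interval -0.51 to -0.04). Tgfb2 lay at -0.11 ± 0.24, but this value rests on 5 to 25 reads in mature adipocytes and on the pseudocount: it was -0.51 with a pseudocount of 0.25, -0.81 with edgeR and -0.80 with DESeq2, where Skil was at -0.79, -0.80 and -0.79. The other 5 members lay between -0.17 and 0.08. Over the whole table limma called 0 of 14193 genes (0%), 1267 had an unadjusted p under 0.05, edgeR called 0 and DESeq2 called 67. In proportion, mature adipocyte Skil was 91.2% of the stromal vascular level in wild type and 52.9% in Kdm5c+/–, where Ski was at 46.8% and 43.8%. In the same order Smad7 was at 93.7% and 67.1%, Smad2 at 92.0% and 75.8%, and Smad3 at 56.0% and 43.6%. Of the members, Tgfb1 alone had a higher share in Kdm5c+/– (16.4% and 18.0%).

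The rest of the pathway was described with 7 lists holding 97 genes, of which 94 were listed in the table (Bmp8b, Foxh1 and Grem1 were not among its names). Between fractions 89 were tested, and 63 were lower and 20 higher in mature adipocytes, with a median of -1.12 beside -0.45 for all genes. Of all genes 59.1% were called lower and 28.7% higher in CPM. With TMM scaling the split of the lists was 52 lower and 25 higher, beside 43.4% of all genes lower and 42.9% higher. The counts of single lists below are to be read against these shares, and where the TMM split differs it is given.

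Of genes that store and free latent ligand, 10 of 13 were lower and 2 higher in CPM, and 8 were lower and 4 higher with TMM. Fbn1, the fibrillin that anchors latent complexes, was at 18.2 ± 3.46 CPM against 1830.3 ± 415 (SD, n = 6 each), a log2 difference of -6.56, and Mmp14, a membrane protease, lay at -6.14. Thbs1, the thrombospondin that can activate latent TGF-beta, went the other way with 1336 ± 615 CPM in mature adipocytes against 220.0 ± 64.3 CPM (2.54), as did Ltbp3, a latent TGF-beta binding protein (1.62). Of other ligands 11 of 14 were lower and 3 higher (9 and 3 with TMM): Gdf10 (-5.81) and Bmp6 (-4.37) were lower, and Bmp3 (4.03) and Inhbb, an activin subunit (1.63), were higher. Bmp3 stood at 141 ± 65.7 CPM in mature adipocytes and 6.98 ± 0.683 CPM in stromal vascular libraries.

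Other receptors split 7 lower and 4 higher of 11, near the shares of all genes, and 5 lower and 4 higher with TMM. Acvr1c, the type I receptor ALK7 known from adipocytes, was at 314 ± 45.8 CPM in mature adipocytes against 7.63 ± 4.40 CPM, a log2 difference of 5.34 (adjusted p = 1.98e-09 by limma), the opposite direction to Tgfbr1. Amhr2 was higher too (2.01), while the endothelial receptors Eng (-4.95) and Acvrl1 (-3.89) were lower. Of the other Smads 3 of 4 were lower (2 of 4 with TMM), among them Smad1, which carries BMP signals (-2.12), and Smad6, its inhibitor (-0.70), whose call was lost with TMM (adjusted p = 0.118 by limma) and quantile scaling (0.142). Cofactors, anchors and modifiers split 11 lower and 7 higher of 18 in CPM, and 7 lower and 8 higher with TMM: Tgif1, a corepressor (-4.14), and Bambi, a decoy receptor (-2.16), were lower, and Pmepa1, a Smad inhibitor (1.52), and Zeb2 (1.01) were higher.

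Secreted antagonists were lower for 5 of 8 and higher for 2 (5 and 3 with TMM), near the share of all genes in CPM, with Dcn (-6.49) and Fstl1 (-5.48) lower and the BMP antagonists Chrdl1 (1.86) and Chrd (0.98) higher. Known transcriptional targets were lower for 16 of 21 and higher for 2 (16 and 3 with TMM). The matrix genes Postn (-6.09) and Fn1 (-6.06) were lowest, while the cell cycle inhibitor Cdkn2b was among those higher in mature adipocytes (1.38). Dcn is also in the list of progenitor and fibroblast markers, of which 7 of 7 were lower in mature adipocytes; their part in these counts was not tested.

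**Figure D5:**
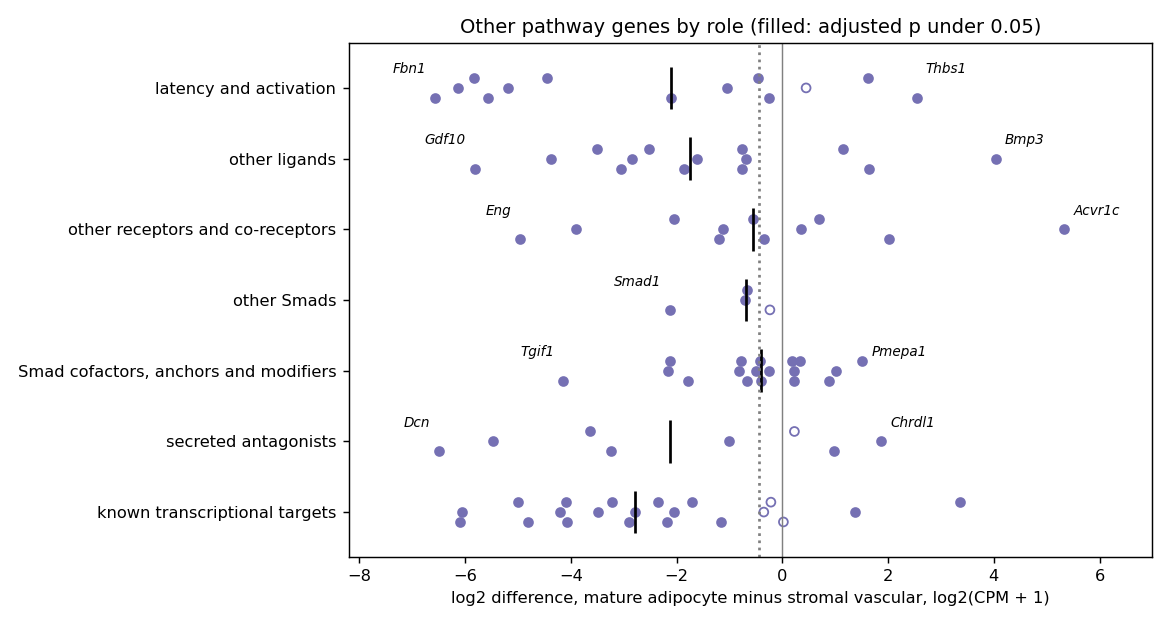
Log2 difference between mature adipocytes and stromal vascular cells for each tested gene of the 7 pathway lists in CPM, with 1 point per gene, filled where the adjusted p is under 0.05, a black bar at the list median and a dotted line at the median of all genes (-0.45). Most genes lie below 0, and Acvr1c (5.34), Bmp3 (4.03) and Thbs1 (2.54) are among those above it.

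Between the genotype labels these lists held 0 called genes of 88 in the stromal vascular fraction, where 56 had negative and 32 positive estimates and groups did not overlap for 12 lower and 3 higher. Those shares, 63.6% negative and 13.6% lower without overlap, stand beside 59.4% and 9.74% of all genes. The widest there without overlap were Bmp4 (-0.64, adjusted p = 0.63 by limma), Bambi (-0.51, adjusted p = 0.617 by limma) and Smad6 (0.41, adjusted p = 0.617 by limma). In mature adipocytes 64 of 79 estimates were negative, with a median of -0.23, and groups did not overlap for 19 lower and 3 higher. Those shares, 81.0% negative and 24.1% lower without overlap, stand beside 56.9% and 12.6% of all genes and are a description for the reason given above. The widest without overlap were Bmp6 (-0.78 ± 0.35), Klf10, an early TGF-beta target (-0.75 ± 0.27), and Lrrc32, a membrane anchor of latent TGF-beta (-0.72 ± 0.24). Klf10 was at 21.5, 17.6 and 26.5 CPM in Kdm5c+/– and at 56.5, 32.3 and 27.7 CPM in wild type, so the lowest wild-type library lay close above the highest Kdm5c+/– one. Lrrc32 stood at 3.28 ± 1.28 CPM against 5.85 ± 0.741 CPM, and at 215 ± 29.5 CPM in wild-type stromal vascular libraries, so its mature adipocyte level was low beside that of the other fraction.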

How the data were processed

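RNA was measured in 12 libraries, each a pool of 2 mice. The values are CPM, deposited by the authors in 1 table. Strand-specific libraries were made, per the labels' protocols. STAR 2.7.2a, edgeR 3.26.8 and GRCm38 are named in the submitters' processing notes, without their roles; no source used here names the counting tool or annotation. Within 0.05 read, 100% of values in each library were whole multiples of 1 read, so reads were recovered. Of the gene names 95.0% matched exactly 1 gene of GENCODE mouse release 21, which gave positions and exon lengths; 23 names had become dates. Columns without a sample numbered 0.

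The members and lists were chosen with earlier results of these data known. Genotype labels were compared within each fraction (6 libraries each), and fractions and the difference of differences in all 12, by limma's lmFit and its eBayes step with trend and robust fitting, on log2(CPM + 1) (limma version 3.58.1, R version 4.3.3). A gene was tested if at least 3 of the libraries fitted reached 1 CPM. A fold on this scale understates changes of low genes. The code was tested on simulated data. Alternatives were a pseudocount of 0.25, no filter or a mean of 5 CPM, median-of-ratios, TMM and quantile scaling, edgeR 4.0.16 and DESeq2 1.42.0 on recovered reads, a replicate block, all 12 libraries in 1 fit for the genotype comparisons, and leaving out each library. The fractions of 1 genotype and number correlated in their deviations from group means (0.169 to 0.278 in 6 of 6 pairs, across genes). From the data they are taken as pairs in the pool-by-pool counts and in the replicate block. The fits behind the stated SEs and p-values did not use the pairing. Genotypes of the same number varied in sign (-0.281 to 0.341) and were not taken as pairs. Their highest value, between the first mature adipocyte libraries, exceeded that of every fraction pair. Correlations between different numbers were not computed.

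All 10 members are named. Of the pathway lists, the 2 called genes per direction with the largest fraction difference are named, and the 3 genes with the widest genotype difference without overlap. A gene that this rule takes is not reported here. Promoter windows are RefSeq's (GRCm38.p6). Figures were drawn with matplotlib 3.10.9 under Python 3.11.15, with pandas 2.3.3 for tables and numpy 2.4.6.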

Additional observations from a re-analysis of the deposited data

How the results depend on the processing

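The count of genes called between genotype labels in mature adipocytes was 0; it was 250 with DESeq2, 1 (Synm) with all 12 libraries in 1 fit, and 0 to 3 as each library was left out (Gbp11, Mycl and Sox4, without the third Kdm5c+/– library; these names, like Synm, were chosen after their values were seen). In the stromal vascular fraction the count was 1; it was 53 with DESeq2, 4 with all 12 libraries in 1 fit (Rps4l, Clca5, Dkk2 and Igsf21, named after their values were seen), and 0 to 0 as each library was left out. Under the replicate block by shared number, although genotypes of the same number were not taken as pairs, it was 0. For the difference of differences it was 67 with DESeq2 and 0 to 7 without 1 library (7 without the third Kdm5c+/– mature adipocyte library). The block changed no other count by more than 1.5 times, and the members called between fractions stayed 9 with it. In the stromal vascular fraction the small Smad4 estimate turned positive with median-of-ratios (0.00993), TMM (0.00706) and quantile (0.0188) scaling, edgeR (0.00653) and DESeq2 (0.0120), and without the second Kdm5c+/– library (0.00978) or the first wild-type one (0.0287), and ranged from -0.0673 to 0.0287 as each was left out. Tgfbr2 ranged from -0.0827 to 0.150, turning negative without the second Kdm5c+/– (-0.0550) or the second wild-type library, and Skil from -0.0750 to 0.160, turning negative without the second Kdm5c+/– (-0.0556) or the third wild-type library. Between fractions Smad2 turned positive with median-of-ratios (0.128), TMM (0.214) and quantile (0.105) scaling, edgeR (0.216) and DESeq2 (0.135), as did Smad7 (0.0280, 0.113, 0.0442, 0.139 and 0.0581). The cause was not tested. Depth limits Tgfb2 in mature adipocytes, at 5 to 25 reads.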
